A study of Drosophila melanogaster with 4 samples.

Results

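The Cpr genes of Drosophila melanogaster encode cuticular proteins of the Rebers and Riddiford family, and Dam-Pr-set7 summits were nearly absent from them in larval neural stem cells. The members were the 70 protein-coding genes among 13922 on the 6 chromosome arms (RefSeq, Release 6, the assembly that dm6 names) whose symbol starts with Cpr followed by a digit. A summit lay inside the gene or within 1000 bp of it for 2 of 70 Cpr genes (2.86%) in replicate 1. In replicate 2 it was 4 of 70 (5.71%). Over all protein-coding genes the shares were 22.5% and 28.1%. Only Cpr50Cb and Cpr66Cb had one in both replicates (2.86%), against 18.2% of all protein-coding genes.

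The data are targeted DamID, in which the bacterial methylase Dam marks GATC motifs near wherever a fused protein sits on chromatin. The series has 4 samples: 2 expressed Dam-Pr-set7 (UAS-Dam-Pr-set7 in pUASTattB-LT3-NDam-Pr-set7, under grh-Gal4) and 2 expressed Dam alone (UAS-Dam, under grh-Gal4). All 4 carry the driver, were reared at 25 °C for 24 h as embryos and then at 29 °C for 24 h as larvae, and are labelled as neural stem cells 24 h after larval hatching. Pr-set7 (SETD8) is the methyltransferase that places the first methyl group on lysine of the histone H4 tail, and the study's title concerns the reactivation of neural stem cells. Cell identity rests on the driver, which the series' design calls specific to neural stem cells, and the dissected tissue is not named in the labels. Summit positions carry no expression values, so the cell type could not be checked against markers.

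Results rest on the 2 Dam-Pr-set7 samples, each with its own list of summits. The series' design gives each Dam-Pr-set7 sample a batch of its own, shared with a Dam-alone sample, so that batch and replicate cannot be told apart. The Dam-alone samples were not analysed here, so the summits are given without a Dam background. Replicate 1 had 2876 summits with a median height of 42 fragments (range 12 to 279), and replicate 2 had 4281 with a median of 37 (range 11 to 204). Height is the authors' count of overlapping fragments at a summit, without scaling for library size, and the depth of the libraries is unknown. It sums over all cells in the sample, so fewer marked cells and weaker marking per cell cannot be told apart. Where no summit is given, none was called at this depth, which does not show that the protein was absent.

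Cuticular proteins of this family bind chitin through a shared sequence, the Rebers and Riddiford consensus, and together with chitin fibres form the larval, pupal and adult cuticle. They are made by epidermal cells and by cells of the trachea, foregut and hindgut, in waves tied to the moults. They are not known as products of neural stem cells. Most are short genes, many lie in tandem arrays that arose by duplication, and each name gives the cytological band of the gene on the polytene chromosomes.

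The share of Cpr genes with a summit was far below that of all protein-coding genes. In replicate 1 it was 2 of 70 (2.86%, exact 95% interval 0.348 to 9.94%), against 22.5% of all protein-coding genes. In replicate 2 it was 4 of 70 (5.71%, interval 1.58 to 14%), against 28.1% of all protein-coding genes. In both replicates it was 2 of 70 (2.86%, interval 0.348 to 9.94%), against 18.2% of all. Genes are not replicates and neighbours share summits, so no p-value was computed, and the intervals cover counting error only. Counting a summit in either replicate, 4 of 70 Cpr genes (5.71%, interval 1.58 to 14%) had one in reach, against 32.4% of all. The remaining 66 members had none in reach.

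**Figure D1:**
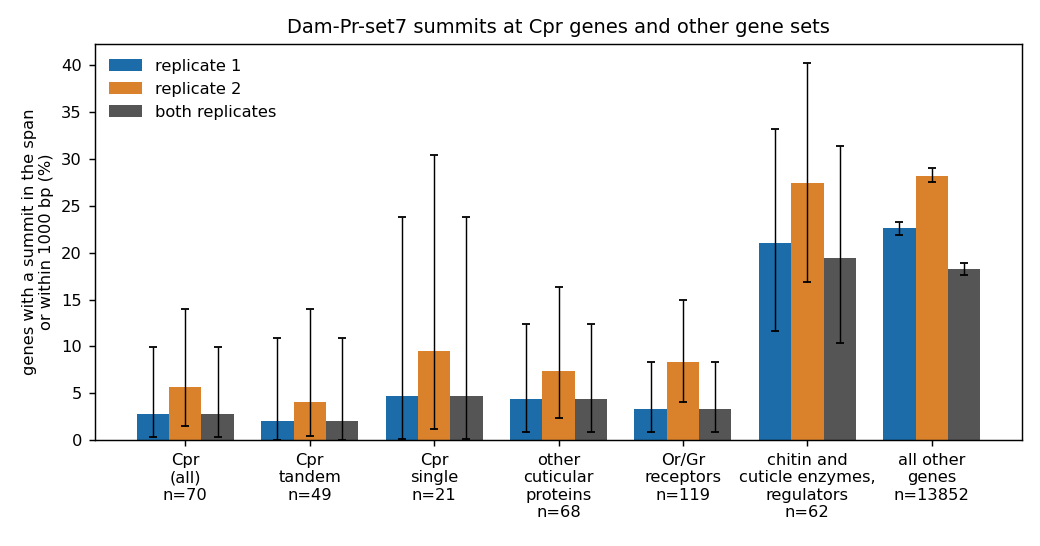
Share of genes (y axis, %) with a Dam-Pr-set7 summit inside the gene or within 1000 bp, by gene set (x axis, n genes in each), in replicate 1, replicate 2 and both; error bars are exact 95% intervals. All Cpr genes stand at 2.86%, 5.71% and 2.86%, against 22.6%, 28.2% and 18.3% of all other genes.

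Cpr genes are short, and a short gene offers less room for a summit, so the share was also read within broad classes of length. The median span was 1094 bp for Cpr genes (range 457 to 18590 bp) and 2169 bp for all other protein-coding genes. Among genes of up to 2000 bp, 1 of 53 Cpr genes (1.89%) had a summit in both replicates, against 739 of 6466 other genes (11.4%). Among longer genes it was 1 of 17 Cpr genes (5.88%), against 1793 of 7386 other genes (24.3%). The Cpr share was the lower in both length classes. The class of longer genes has no upper limit, and its other genes reach 1965857 bp, so lengths there are not matched. Its Cpr share rests on 17 genes. By arm, 35 of the members lie on 3L, 21 on 2R, 5 each on 2L and 3R, 4 on X and none on chromosome 4. On 3L, 1 of 35 Cpr genes (2.86%) had a summit in both replicates, against 19% of the other genes of the arm, and on 2R 1 of 21 (4.76%), against 19.6%. The other arms hold too few members for their shares to be read.

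Of the members with a summit, Cpr66Cb had by far the highest. Cpr66Cb (gene 38940, 3L, 8336672 to 8338595, dm6) had 1 summit in each replicate, 131 fragments high at 8339107 in replicate 1 and 135 fragments high at 8339106 in replicate 2. These positions are 1 bp apart and rank at the 92.3 and 95 percentile of height in their lists. They lie outside Cpr66Cb, 512 and 511 bp beyond its upper end, and inside its neighbour Pex2 (8339051 to 8340276), which encodes a peroxin needed for import of proteins into peroxisomes. Pex2 begins 456 bp from Cpr66Cb. The next genes are Prim1, the small subunit of DNA primase, 1207 bp from the replicate 1 summit, and CG7083, 1678 bp from it. The summit is therefore nearest to Pex2 and not to the cuticular gene.

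Cpr50Cb was the only member with a summit inside its own span. Cpr50Cb (gene 36525, 2R, 13794777 to 13805231) is one of the longest members at 10455 bp. Its summit of replicate 1 had 16 fragments (13796603), and that of replicate 2, 84 bp away, had 14 (13796687). Both are among the lowest of their lists, at percentiles of 3.7 and 3.54. No other protein-coding gene lies within 1000 bp of them. Cpr50Ca, the other member of this pair (17888 bp), had its nearest summits 7745 bp away in replicate 1 and 7677 bp away in replicate 2.

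The other members in reach had a summit in replicate 2 alone, each close to the limit of 1000 bp. Cpr30F (gene 318997, 2L, 9932272 to 9933163) had a summit of 26 fragments at 9931294, 978 bp away, in replicate 2, whereas the nearest of replicate 1 was 4868 bp away. That summit lies 163 bp from CG42367 and 916 bp from CG42366, so that CG42367 is its nearest gene. Cpr65Eb (gene 38774, 3L, 7087713 to 7088787) had a summit of 50 fragments at 7089781, 994 bp beyond its upper end, in replicate 2, whereas the nearest of replicate 1 was 6303 bp away. No other protein-coding gene lies within 1000 bp of the summit near Cpr65Eb, which falls between Cpr65Eb and Cpr65Ec.

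A further 4 members had a summit between 1000 and 2000 bp away. Cpr76Ba (3L) had a high summit in both replicates, of 127 fragments in replicate 1 (19516492, 1060 bp away) and of 145 fragments in replicate 2 (19516489, 1063 bp away). Their height percentiles were 91.6 and 96. No protein-coding gene lies within 1000 bp of these positions, and Cpr76Ba is the nearest. Cpr65Ec (3L) had summits of 24 fragments at 1249 bp in replicate 1 and of 48 fragments at 1232 bp in replicate 2, both inside form3, which encodes a formin, a nucleator of actin filaments. In replicate 2 alone, Cpr31A (2L) had a summit of 121 fragments at 1647 bp, inside Pen, which encodes an importin alpha of nuclear protein import. Also in replicate 2 alone, Cpr47Eg (2R) had one of 13 fragments at 1318 bp. That position lies between Cpr47Eg and TpnC47D, a troponin C gene of muscle, 1353 bp away.

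Distance to the nearest summit, which uses no limit, gave the same picture. The median over the 70 Cpr genes was 17266 bp in replicate 1 and 17849.5 bp in replicate 2, against 8357.5 and 5299 bp over all other protein-coding genes. The quartiles of distance in replicate 1 were 8448.25 and 40695.8 bp for Cpr genes and 1362.75 and 24444.8 bp for the other genes. In replicate 2 they were 6672.75 and 32599.8 bp for Cpr genes and 632 and 16531.2 bp for the other genes. No summit lay within 10000 bp in either replicate for 42 of 70 Cpr genes (60%), against 30.6% of all protein-coding genes. In replicate 2, which has more summits, both quartiles of the Cpr genes were closer than in replicate 1, while their median was nearly the same.

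**Figure D2:**
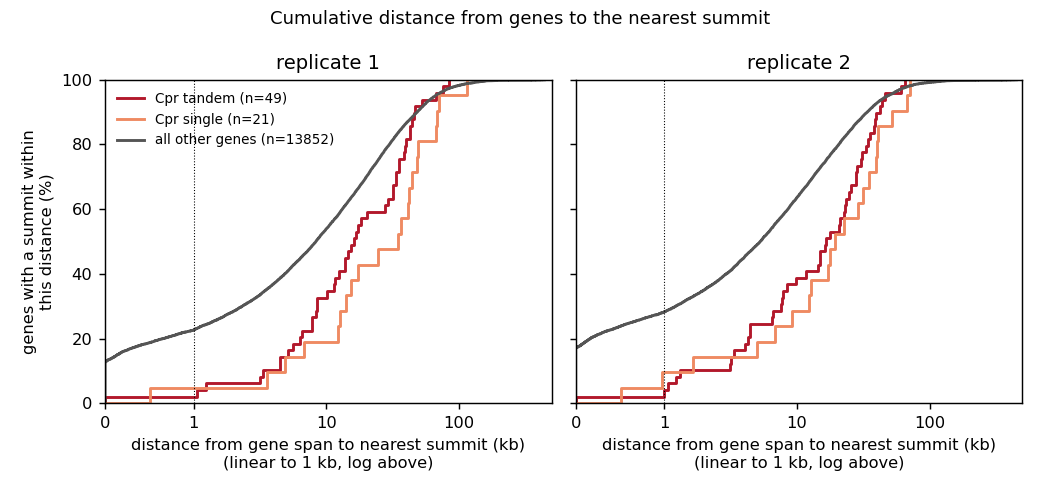
Cumulative share of genes (y axis, %) against the distance from the gene to the nearest summit (x axis, kb, linear to 1 kb and logarithmic above), per replicate, for tandem Cpr genes, single Cpr genes and all other genes; the dotted line marks 1 kb. Both Cpr curves run below that of the other genes over most of the range, with medians of 16251 (tandem) and 34704 bp (single) against 8357.5 bp in replicate 1.

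Among themselves the Cpr genes ranged widely. Cpr100A (3R) was the farthest from a summit in replicate 1, at 115851 bp, and lay 28613 bp from one in replicate 2. Cpr5C (X) was the farthest in replicate 2, at 71578 bp, and lay 41032 bp from one in replicate 1. Cpr12A (X) was 67006 and 67013 bp from the nearest summits, and Cpr35B (2L) 67727 and 52222 bp, in replicates 1 and 2. For 25 of 70 members (35.7%), against 41.3% of all other genes, the nearest summit of replicate 1 was at most 500 bp from that of replicate 2, so both replicates gave nearly the same distance. Of the other 45, 30 (66.7%) had the closer summit in replicate 2, the list with more summits, against 66.6% of the other genes without such a pair.

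**Figure D3:**
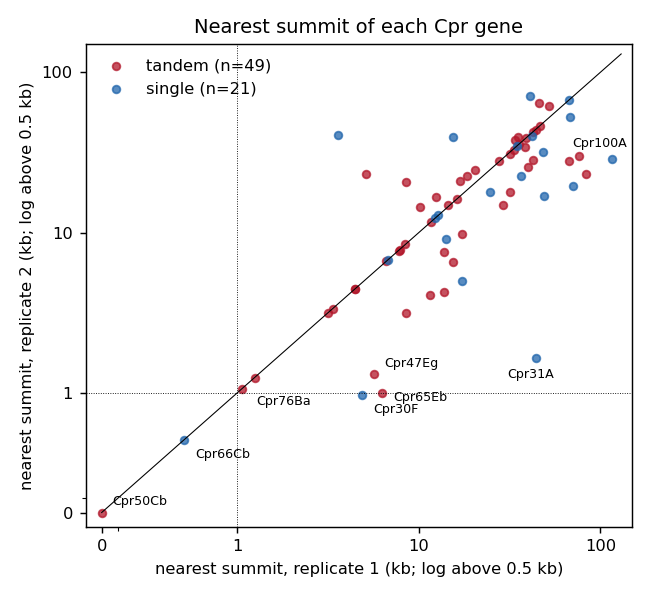
Distance of each Cpr gene to its nearest summit in replicate 1 (x axis) and replicate 2 (y axis), in kb, linear below 0.5 kb and logarithmic above; points are genes, coloured by tandem or single, the line is equality and dotted lines mark 1 kb. Only Cpr50Cb (0 in both) and Cpr66Cb (512 and 511 bp) lie within 1 kb on both axes.

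Tandem and single Cpr genes were compared next, a tandem gene being one with another member within 20000 bp on the same arm. There were 49 tandem genes in 12 clusters and 21 single genes. In replicate 1 a summit was in reach of 1 of 49 tandem genes (2.04%, interval 0.0517 to 10.9%) and of 1 of 21 single genes (4.76%, interval 0.12 to 23.8%). In replicate 2 it was 2 of 49 tandem genes (4.08%, interval 0.498 to 14%) and 2 of 21 single genes (9.52%, interval 1.17 to 30.4%). In both replicates the counts were 1 and 1. The intervals of tandem and single genes overlap widely. Both shares lie below those of all protein-coding genes, which were 22.5%, 28.1% and 18.2% in replicate 1, replicate 2 and both. The intervals of the 21 single genes contain these values (0.12 to 23.8% for both replicates), so a lower share is not shown for single genes alone. Counted by locus, 1 of 12 clusters (50C) and 1 of 21 single genes (Cpr66Cb) had a member reached in both replicates. For clusters, no like count over the genome was made. Median distances were 16251 bp for tandem and 34704 bp for single genes in replicate 1, and 16663 and 19490 bp in replicate 2. Single genes thus lay farther from summits than tandem genes in both replicates by the median. The difference was not tested, since members of a cluster share their summits.

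**Figure D4:**
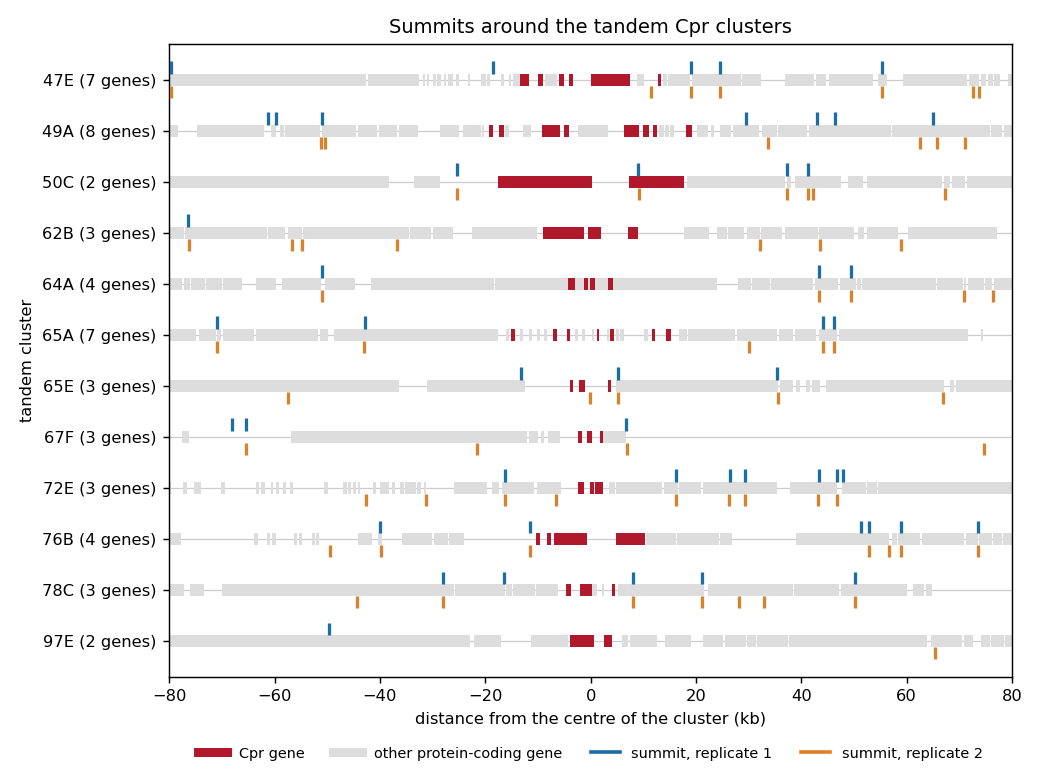
Map of the 12 tandem Cpr clusters (rows, with the number of Cpr genes), centred on the cluster, with distance in kb on the x axis; red boxes are Cpr genes, grey boxes other protein-coding genes, and ticks summits of replicate 1 (above) and replicate 2 (below). Ticks fall outside the red arrays except at 50C in both replicates and at 47E and 65E in replicate 2.

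Most tandem arrays held no summit. The clusters hold 2 to 8 members, span 4704 to 38545 bp and sum to 212770 bp. No summit fell between the outermost members in 11 of 12 clusters in replicate 1 and in 9 of 12 in replicate 2. The arms held 2.14 and 3.18 summits per 100 kb in replicates 1 and 2, so spans of this size can often lack one. No like spans elsewhere in the genome were counted, so these counts are not read as a trait of the arrays. The exceptions were 50C in both replicates, and 47E and 65E in replicate 2. The summit-free intervals that held the tandem genes were of about the usual length in replicate 1, with a median of 76408.5 bp, against 72749 bp for all other genes without a summit inside them. In replicate 2 the medians were 73010 bp for tandem genes and 52699 bp for the other genes. The largest cluster, 49A on 2R with 8 members and 7 other genes (12376626 to 12415170), lay in a summit-free interval of 80562 bp in replicate 1 and 84032 bp in replicate 2. These intervals held 26 and 29 protein-coding genes. On the lower side they ended near ana3, which encodes a centriole protein, and CG8839, with 36 and 33 fragments. On the upper side the replicates differed, with summits near CG8520 and Dera in replicate 1 and at the nucleoporin gene Nup54 in replicate 2.

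The 65A cluster on 3L mixes 7 Cpr genes with 11 other genes between 6131242 and 6161589, among them Lcp65Aa to Lcp65Ag2, the larval cuticle protein genes, and Acp65Aa, an adult cuticle gene. Its interval without summits was 86937 bp in replicate 1 and 73010 bp in replicate 2. It began in both replicates inside Ets65A, an ETS transcription factor gene, with 33 and 29 fragments. It ended at CG7386 in replicate 1 (105 fragments) and at CG7376 in replicate 2 (65 fragments). Cpr65Ax1 and Cpr65Ax2 in this cluster, like Cpr67Fa1 and Cpr67Fa2, are known as near-identical copies. The sources used here do not give how reads with several matching positions were placed, so the missing summits at these 4 genes are uncertain.

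The 64A cluster on 3L had the same summits on both sides in both replicates. Its 4 genes all lie within the span of the larger gene CG43367 (4193993 to 4224003). The lower summit had 82 fragments in replicate 1 (4161092) and 80 in replicate 2 (4161118) and lay between nab, a transcription cofactor gene, and mas, which encodes the extracellular protein Masquerade. The upper summit had 72 fragments in replicate 1 (4255468) and 102 in replicate 2 (4255469), at CG1265 and CG15011. The members of 64A were 39054 to 46290 bp from a summit in replicate 1 and 39055 to 46291 bp in replicate 2.

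At 67F on 3L a high summit lay next to the array but not on it. The neighbour Aps, which encodes a phosphatase of inositol pyrophosphates, begins 83 bp beyond Cpr67Fb. Its summit had 233 fragments in replicate 1 (10899137) and 202 in replicate 2 (10899153), 14 and 30 bp beyond the opposite end of Aps. These rank at the 99.3 and 99.8 percentile of their lists. The 3 Cpr genes there were 4444 to 8437 bp from it in replicate 1 and 4460 to 8453 bp in replicate 2.

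At 78C on 3L the nearest summits were also those of a neighbour. They lay within CG11309, had 96 fragments in replicate 1 (21304533) and 111 in replicate 2 (21304522), and were 3362 and 3351 bp beyond Cpr78Cc. At 76B on 3L the summits beside Cpr76Ba were followed by an interval of 62801 bp in replicate 1 and 64304 bp in replicate 2, which took in all 4 Cpr genes and ended inside Shal, a potassium channel gene, with 58 and 63 fragments. At 72E on 3L the upper summits were shared, at Agpat4 and Agpat3, acyltransferase genes of phospholipid synthesis, with 40 fragments in replicate 1 and 83 in replicate 2. The lower ones there differed between replicates, at Golgin104 and mRpS34 in replicate 1 (77 fragments) and at ringer in replicate 2 (30 fragments).

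The remaining clusters differed between the replicates. At 62B on 3L the 3 members were 67373 to 83525 bp from a summit in replicate 1 and 23222 to 30142 bp in replicate 2. At 97E on 3R the 2 members were 45714 and 52288 bp from one in replicate 1 and 61287 and 64639 bp from one in replicate 2. At 47E on 2R the 7 members ranged from 5142 to 17224 bp in replicate 1 and from 1318 to 23241 bp in replicate 2, with Cpr47Ea to Cpr47Ed farther from a summit in replicate 2 and Cpr47Ee to Cpr47Eg farther in replicate 1. Of the 48 summits that bound the 12 clusters over both replicates, 32 (66.7%) had a summit of the other replicate within 500 bp, against 69% of all summits on the arms in replicate 1 and 46.5% in replicate 2. The 66.7%, pooled over the replicates, is near the general share of replicate 1 and above that of replicate 2. A protein-coding gene lay within 1000 bp of 43 of the 48 (89.6%), against 85.2% of all summits in replicate 1 and 82.8% in replicate 2, which is near the general shares. The bounding genes were named after their positions were seen.

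Summit density around the Cpr genes was low at the genes, near the mean of the arms from 1 to 20 kb and above it between 20 and 50 kb. Inside Cpr genes it was 0.643 summits per 100 kb in each replicate (1 summit in 155 kb). In the first 1000 bp outside them it was 0.821 per 100 kb in replicate 1 (1 summit) and 2.46 in replicate 2 (3 summits). Around all protein-coding genes, the same 2 zones had 2.21 and 5.09 per 100 kb in replicate 1 and 3.28 and 6.39 in replicate 2. The density just outside genes was thus lower around Cpr genes than around all genes in both replicates, on counts of 1 and 3 summits. From 1 to 20 kb from the nearest Cpr gene the 3 zones had 1.9 to 2.42 per 100 kb in replicate 1 and 2.58 to 2.84 in replicate 2, against 2.14 and 3.18 over the 6 arms. Between 20 and 50 kb the density was 3.04 and 4.63 in replicates 1 and 2, and between 50 and 100 kb it was 2.31 and 3.65. Positions that far from any protein-coding gene are gene-poor, so that the curves of Cpr genes and of all genes there describe different DNA.

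**Figure D5:**
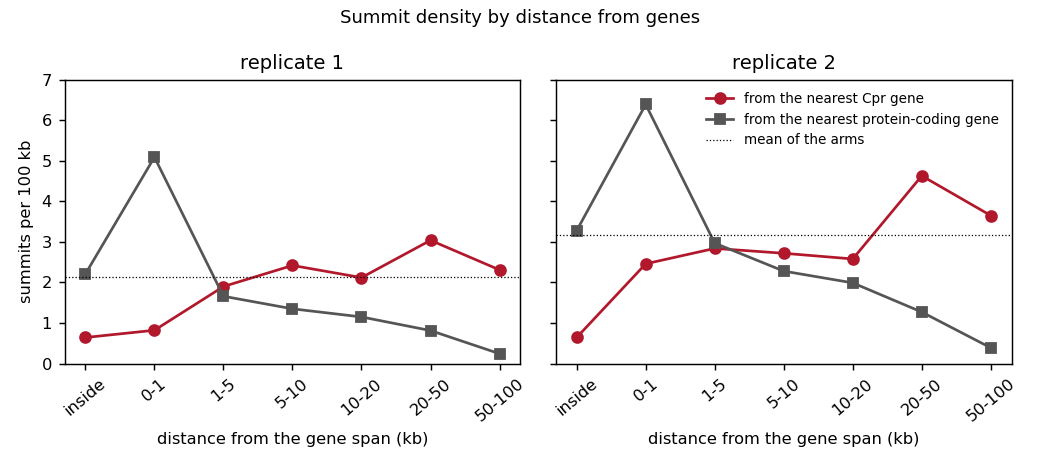
Summits per 100 kb (y axis) inside genes and in zones of distance from the nearest gene (x axis, kb), per replicate, around Cpr genes and around all protein-coding genes; the dotted line is the mean of the 6 arms. Inside and within 1 kb the Cpr line lies below that of all genes, at 0.643 and 0.821 against 2.21 and 5.09 in replicate 1.

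Up to 5000 bp from a Cpr gene, the shares among other genes were also below that of the genome, on small counts and without intervals. The genes within 1000 bp include other cuticular genes, such as Edg78E and Lcp65Aa. They also include genes that share 1 annotated span, such as BORCS7 and CG13430. Of 50 non-member genes within 1000 bp of a Cpr gene or overlapping one, 6 had a summit in both replicates (12%), and between 1000 and 5000 bp it was 4 of 62 (6.45%), against 18.2% of all protein-coding genes. Farther out the share followed no steady course, with 17.2% between 5000 and 10000 bp, 12% between 10000 and 20000 bp, 23% between 20000 and 50000 bp and 15.8% between 50000 and 100000 bp. The 6 adjacent genes were form3, Pex2, Aps, CG11309, Dys and hwt. Dys, the dystrophin gene, ends 214 bp from Cpr92A, but its highest summits (97 and 98 fragments) lie deep inside its own span. The gene hwt spans Cpr11B, and its highest summits had 52 and 46 fragments. Pen, CG4022 and Asx, a Polycomb group gene whose end is 66 bp from Cpr51A, had a summit in replicate 2 alone.

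Other gene groups of the cuticle were set beside the Cpr genes as counts. Of 68 other cuticular protein genes (Lcp, Ccp, Twdl, obst, Vajk and single genes), 3 had a summit in both replicates (4.41%), against 18.2% of all protein-coding genes. They were resilin, which encodes the rubber-like protein of elastic cuticle (95 and 116 fragments), the Tweedle gene TwdlG (41 and 58) and Vajk3 (26 and 36). The resilin summit of replicate 1 lay 838 bp outside that gene and was also within 1000 bp of RalGPS. In the chitin, cuticle enzyme and regulator list, 12 of 62 genes (19.4%) had a summit in both replicates, close to the share of all genes. Its highest were those of the nuclear receptor genes ftz-f1 (163 and 120 fragments) and EcR, the ecdysone receptor (78 and 109), of stw, the laccase that tans cuticle (74 and 80), and of vri, a bZIP transcription factor gene (39 and 60). The highest stw summits of the replicates lay 2351 bp apart. That list holds longer genes, with a median span of 7452 bp, against 1094 bp for Cpr genes and 2169 bp for all other protein-coding genes. Its share is therefore not matched for length. Among non-Cpr genes longer than 2000 bp, 24.3% had a summit in both replicates.

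Olfactory and gustatory receptor genes, another family with tandem arrays and restricted expression, also had a low share. Of 119 Or and Gr genes, 4 had a summit in both replicates (3.36%, interval 0.923 to 8.38%), against 18.2% of all protein-coding genes. In replicate 2 it was 10 of 119 (8.4%), against 28.1% of all. Their median distance to a summit was 16045 bp in replicate 1 and 10160 bp in replicate 2, beside 17266 and 17849.5 bp for Cpr genes. Both families had shares below that of all genes, and the difference between the families was not tested.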

How the data were processed

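The tools named in the submitters' processing notes are MACS 1.4.2, Bowtie2 2.2.6 and bcl2fastq 2.19.0.316, and the build is dm6. For peak calling, the sources used here do not give the control, cutoffs or duplicate filters. The deposited signal is the authors' pileup height in fragments at each 1 bp summit, called per sample and not scaled to depth. Heights were used only to describe or rank summits within a list.

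Groups came from the genotype in the labels. The replicate numbers only follow the order of deposit, and nothing states that they came from separate cultures of animals. Of the summits, 2856 and 4240 lay on the 6 arms used, and the other 20 and 41 were left out. Gene spans came from a RefSeq table; strand, transcript starts, exons and genome sequence were not used here. A gene was reached when a summit lay inside its span or within 1000 bp. Clusters were chained at gaps of up to 20000 bp. Intervals are exact Clopper-Pearson 95% intervals. The genes named are all Cpr genes with a summit, the neighbours at those summits, genes inside clusters and up to 4 genes per other list by height percentile. The members and lists were chosen with earlier results of these data known. Of 64 terms of the chitin list, 1 was not found and 2 came through synonyms. Alternatives were distances of 500 and 2000 bp, gene ends, nearest gene, summits at or above the median height, each replicate alone, summits of both replicates within 500 bp, other cluster gaps and omission of near-identical copies. The functions were tested on simulated data. Computation used matplotlib 3.10.9, SciPy 1.17.1, pandas 2.3.3, numpy 2.4.6 and Python 3.11.15.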

Additional observations from a re-analysis of the deposited data

How the results depend on the processing

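In all 43 alternative counts of genes, the Cpr share stayed below that of all protein-coding genes under the same setting. The counts themselves are small and moved by more than 1.5 times in many settings, in the direction in which the setting adds, removes or regroups summits or genes. Counts are given in the order replicate 1, replicate 2, both replicates, tandem genes in both, single genes in both and clusters in both, which were 2, 4, 2, 1, 1 and 1. They were 1, 1, 1, 1, 0 and 1 within 500 bp and 4, 8, 4, 3, 1 and 3 within 2000 bp. Within 2000 bp the share in both replicates was 5.71%, against 23.3% of all genes. They were 1, 3, 1, 0, 1 and 0 at gene ends only, and 1, 2, 1, 1, 0 and 1 when each summit counted for the nearest gene only. With summits at or above the median height they were 1, 2, 1, 0, 1 and 0, and the median distances were 37192 and 28291 bp, against 19769 and 12489.5 bp over all genes. Without replicate 1 or without replicate 2, the 4 counts over both replicates ranged from 2 to 4, 1 to 2, 1 to 2 and 1 to 2. With clusters linked within 5000 bp, 50C was split, leaving 0 of 42 tandem genes, 2 of 28 single genes and 0 of 15 clusters reached. Links of 50000 bp, summits of both replicates within 500 bp of each other, and omission of 4 near-identical copies (chosen after seeing the data) left the counts as they were. No paired analysis was made, because the Dam-alone samples were not analysed here and the results come from no test. Unknown library depth limits all absences.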

Other observations

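By the median, Cpr genes lay deeper within their summit-free intervals than other genes did. Among genes with no summit inside them, the distance to the nearer bounding summit had a median of 33.7% of the summed distance to both sides for 69 Cpr genes in replicate 1, against 21.3% for 12072 other genes. In replicate 2 it was 29.7% for 69 Cpr genes, against 21.7% for 11485 other genes. The intervals that held a Cpr gene had a median length of 80562 bp in replicate 1 and 73010 bp in replicate 2, against 72749 and 52699 bp for the other genes. These 2 medians are the intervals of the clusters 49A and 65A, counted once per member. In replicate 1 the upper quartile was shorter for Cpr genes, at 94375 bp against 129596 bp, so their intervals were not longer throughout. The measure of depth is built on the distance to the nearest summit given above, so it is not a separate result. Members of a cluster share their interval, and these values were not tested.

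Several Cpr genes without a summit in reach overlap other genes in the annotation. Cpr57A has the same annotated start and end as Obp57d, an odorant-binding protein gene, and lay 12254 and 12250 bp from the nearest summits in replicates 1 and 2. Cpr73D holds Obp73a within its span and overlaps Ogdh, a subunit gene of the mitochondrial oxoglutarate dehydrogenase, and its nearest summits were 49152 and 17001 bp away. Cpr56F holds CkIIbeta2, a casein kinase II subunit gene, with summits 3604 bp away in replicate 1 and 40637 bp away in replicate 2.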
